A study of Homo sapiens with 16 samples.

Results

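Components of the insulin and IGF pathway, 9 genes in all, were followed through actin depolymerisation in pancreatic progenitors. They were the forkhead transcription factors FOXO1, FOXO3 and FOXO4, the receptors INSR and IGF1R, the adaptors IRS1 and IRS2, and the phosphoinositide 3-kinase (PI3K) regulatory subunits PIK3R1 and PIK3R3. The genes were taken by name as parts of one pathway, with earlier results of these data known, and make up 9 of the 35810 genes in the transcript tables. All 9 passed the filter on low counts, as did 16705 genes in all. Each rested on at least 574 and at most 10021 estimated reads per library.

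The cells were of the human embryonic stem cell line SA121 with the genotype NGN3-GFP, a reporter of the endocrine factor NEUROG3, and had been differentiated to pancreatic progenitors at day 19. Latrunculin B, a sponge toxin that binds actin monomers and so depolymerises actin filaments, was given at 0.5 µM for 3 h (n = 3 libraries), 6 h (n = 3), 12 h (n = 2) or 24 h (n = 3). Controls were cells at 0 h (n = 3) and cells in the vehicle DMSO for 24 h (n = 2). The 0 h control carries a DMSO tag in the labels, although the series describes it as collected ahead of the treatment. None of the 16 libraries is a vehicle control of 3, 6 or 12 h, so time in culture and drug cannot be told apart at those times. The 16 libraries held 23609727 to 33515398 estimated reads. All came from a single cell line, and nothing says that replicates were separate cultures, so p-values measure only the spread between these libraries, which may be technical. RNA was taken from whole cultures, so fewer cells of a type and less RNA per cell cannot be told apart.

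In this pathway, insulin or an insulin-like growth factor (IGF) binds a receptor tyrosine kinase, INSR or IGF1R, which phosphorylates the adaptors IRS1 and IRS2. The adaptors recruit PI3K through its regulatory subunits, and the lipid that PI3K makes activates the kinase AKT, which phosphorylates FOXO proteins and keeps them out of the nucleus. FOXO factors left in the nucleus bind their target genes, among them genes of the pathway itself, and in the pancreas FOXO1 is known from progenitors and from beta cells. Transcript levels do not report the phosphorylation or the location of these proteins.

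Progenitor markers were present. PDX1, the master regulator of the pancreas, lay between 222 and 395 CPM (reads scaled to library size) in the 16 libraries, and SOX9 between 297 and 442 CPM. PTF1A, a factor of the acinar lineage and of early progenitors, stayed under 1 CPM in every library. Replicate 2 of latrunculin B at 12 h stood apart from the rest. Its 8 mesenchyme markers summed to 1066 CPM, against 222 CPM in replicate 1, and 6 of the 8 were higher there than in any other library. Over the other groups that sum ran from 172 to 447 CPM. The 10 endocrine markers summed to 38.6 to 48.1 CPM at 0 h, 75.4 to 88.7 CPM in control 24 h and 122 to 377 CPM after 24 h of drug. At 3 h that sum was 69.0 to 115 CPM and at 6 h 102 to 161 CPM. Other sets moved early too. The 6 liver markers summed to 1139 to 1337 CPM at 0 h and 2080 to 2347 CPM at 6 h. The 4 pluripotency markers summed to 387 to 416 CPM at 0 h and 202 to 258 CPM at 3 h. Nearly all of the pluripotency sum was LIN28A, at 200 to 430 CPM over the 16 libraries. POU5F1, NANOG and SOX2 reached at most 2.14, 0.871 and 6.97 CPM. The part of any of these marker sets in the results below was not tested. Values at 12 h without replicate 2 are given for the called genes among the 9.

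The 3 reference sequences below are shown because the results turn on their genes. The first is exon 11 of INSR, the exon that separates the 2 receptor isoforms, and the others are the 250 bases upstream of the transcription starts of IRS2 and IRS1, the adaptor pair whose levels parted during the treatment. The exon has 36 bases, the length of 12 codons, and lies at chr19:7150497-7150532 on the minus strand of GRCh38. Read from its first base it would end in the stop codon tag, so its codons do not start there. The IRS2 window lies at chr13:109786584-109786833 and the IRS1 window at chr2:226799821-226800070, both on the minus strand of GRCh38.p14, and both come from RefSeq's starts. All are written 5′ to 3′ on the strand of the gene. Capitals mark matches to 4 short motifs searched on both strands. These were GTAAACA (the core bound by FOXO factors), CAAAACA (the core of the insulin response element), CATTCC (the core bound by TEAD factors, the DNA-binding partners of YAP) and CACGTG (the E-box).

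INSR exon 11: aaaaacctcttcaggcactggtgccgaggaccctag
IRS2 upstream: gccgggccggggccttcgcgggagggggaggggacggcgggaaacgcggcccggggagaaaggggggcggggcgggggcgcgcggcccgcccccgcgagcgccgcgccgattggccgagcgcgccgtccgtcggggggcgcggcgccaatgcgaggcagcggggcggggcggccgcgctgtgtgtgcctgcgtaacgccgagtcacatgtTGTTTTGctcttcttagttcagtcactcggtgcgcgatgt
IRS1 upstream: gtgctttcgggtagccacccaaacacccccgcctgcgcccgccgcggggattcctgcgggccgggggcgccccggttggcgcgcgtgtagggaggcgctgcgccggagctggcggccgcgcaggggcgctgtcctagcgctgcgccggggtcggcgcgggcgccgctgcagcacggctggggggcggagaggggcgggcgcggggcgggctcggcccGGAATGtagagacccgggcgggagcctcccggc

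The insulin response core occurred in the IRS2 window, starting 40 bases upstream, and the TEAD core in the IRS1 window, starting 33 bases upstream, each on the opposite strand from the gene. Of 35116 promoter windows of the same length, 4.30% held the insulin response core, 11.9% the TEAD core, 2.98% the FOXO core and 6.34% the E-box. The 9 genes have 20 windows in that table, with several starts for FOXO3, PIK3R1 and PIK3R3, and 1 held the insulin response core, 1 the TEAD core and 0 either of the other motifs. A match is a string of letters and not a measured binding site.

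The first question was how fast and how far the 9 genes responded to the drug. At 3 h 4 of the 9 were higher than in control 0 h by edgeR's quasi-likelihood test (adjusted p under 0.05) and 0 were lower. FOXO1 rose 2.67-fold, PIK3R1 2.29-fold, IRS2 2.12-fold and INSR 1.33-fold. Among all genes tested 31.6% were called at 3 h, 16.8% higher and 14.7% lower. By 6 h 6 of the 9 were higher and 1 was lower, against 43.3% of all genes called, 22.9% higher and 20.4% lower. At 12 h 4 were higher and 2 lower, against 35.8% of all genes, 19.1% higher and 16.8% lower. After 24 h of drug, set against control 24 h, 3 were higher and 3 lower, while 40.8% of all genes were called, 21.9% higher and 18.8% lower. The median log2 fold change of the 9 was 0.14, 0.47, 0.14 and -0.10 in the order of time, and that of all genes tested lay between -0.01 and 0.01. Of all calls at 3 h 53.3% were higher genes, and 36.1% when no scaling was applied. At 6 h these shares were 52.8% and 37.7%, and the unscaled median of all genes lay at -0.10.

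**Figure D1:**
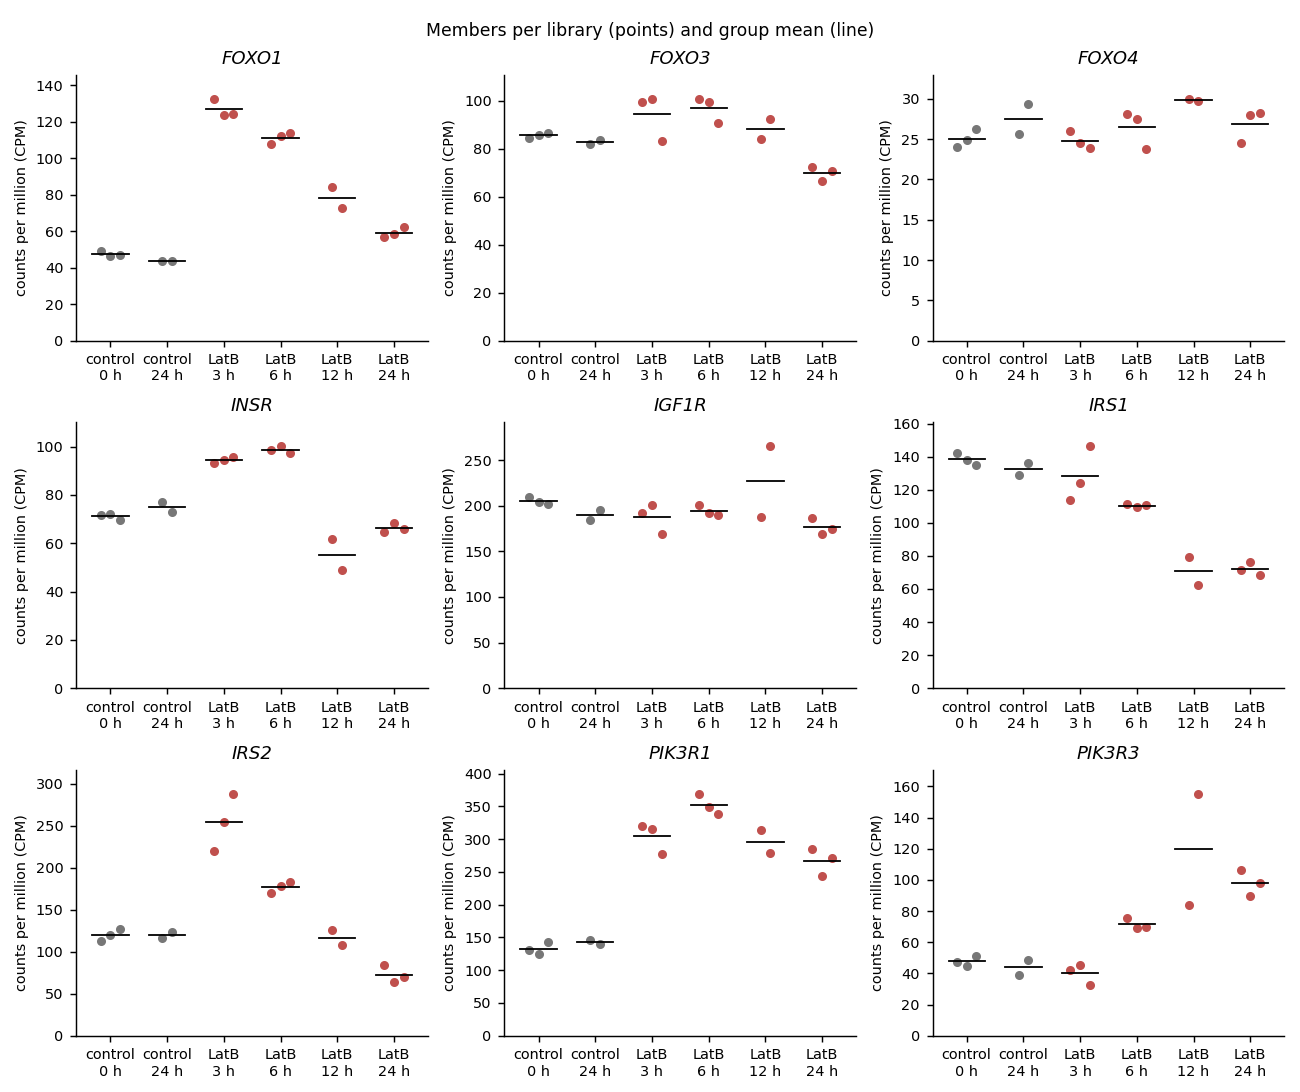
Level of each of the 9 genes in CPM (vertical axis) in every library, by group (horizontal axis, LatB is latrunculin B), with points for libraries and a line at the group mean. FOXO1 libraries at 3 h lie between 124 and 133 CPM, above all 5 control libraries at 43.4 to 49.3 CPM.

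FOXO1 (ENSG00000150907.10, chr13:40555667-40666641, GRCh38) encodes the FOXO factor best known from insulin-responsive tissues. Its level was 49.3, 46.2 and 47.2 CPM in the control 0 h libraries and 43.4 and 43.6 CPM in control 24 h. With the drug it reached 133, 124 and 124 CPM at 3 h, 108, 112 and 114 CPM at 6 h, 84.1 and 72.7 CPM at 12 h, and 56.6, 58.7 and 62.2 CPM at 24 h. Every drug library lay above every control library, and the 4 drug groups did not overlap one another. The log2 fold change against the matching control was 1.42 (SE 0.06, edgeR adjusted p 1.35e-08) at 3 h and 1.23 at 6 h. It was 0.72 at 12 h, or 0.82 without replicate 2 of that time, and 0.44 at 24 h (SE 0.06, adjusted p 0.000144). All 20 fits tried at 3 h and all 19 tried at 24 h called it higher. From 3 h to 6 h it fell by 0.19 (SE 0.06, adjusted p 0.0254), a call that was lost without latrunculin B 3 h replicate 1 (-0.16, adjusted p 0.102), 6 h replicate 1 (-0.17, adjusted p 0.0961) or 6 h replicate 2 (-0.19, adjusted p 0.0616). From 6 h to 24 h it fell by 0.91 (SE 0.06, adjusted p 1.78e-07). Almost all of its TPM, from 98.3% to 100% by group, belonged to the transcript FOXO1-201, which encodes 655 amino acids.

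FOXO3 (ENSG00000118689.15, chr6:108559835-108684774), a FOXO factor expressed in most tissues, changed little. Its control 0 h libraries were at 84.4, 85.5 and 86.6 CPM, and those of control 24 h at 81.8 and 83.7 CPM. Drug libraries read 99.6, 101 and 83.3 CPM at 3 h, 101, 99.3 and 90.9 CPM at 6 h, 84.0 and 92.4 CPM at 12 h, and 72.3, 66.5 and 70.6 CPM at 24 h. The 24 h libraries were thus the lowest, and the third library of 3 h lay within the range of the controls while its partners lay above. FOXO3 was called higher at 6 h (0.18, SE 0.07, adjusted p 0.0470) and lower at 24 h (-0.25, SE 0.08, adjusted p 0.0208). The first call held in 7 of 20 fits, and 5 single libraries ended it, with values from 0.13 to 0.19. These were each of the 3 control 0 h libraries and replicates 1 and 2 of 6 h. At 3 h it was called in the fit without latrunculin B 3 h replicate 3 (0.21, adjusted p 0.0165). At 24 h the call was lost without control 24 h replicate 1 (-0.26, adjusted p 0.0762), control 24 h replicate 2 (-0.23, adjusted p 0.103) or latrunculin B 24 h replicate 2 (-0.21, adjusted p 0.0682).

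The near-identical copy FOXO3B shares reads with FOXO3, so the FOXO3 values are uncertain. At 0 h the reads given to the copy came to 21.8 ± 1.01 CPM (SD, n = 3), and by 6 h to 44.4 ± 0.772 CPM (SD, n = 3). With both summed per library, a reading chosen after the data were seen, the level at 0 h was 107 ± 0.118 CPM (SD, n = 3) and that at 6 h was 141 ± 5.06 CPM (SD, n = 3). Control 24 h read 106 ± 2.42 CPM (SD, n = 2) and cells after 24 h of drug 105 ± 4.10 CPM (SD, n = 3). The log2 ratio of these means was 0.40 at 6 h with no overlap of the libraries, and -0.01 at 24 h with overlap. The fall of FOXO3 at 24 h was therefore not present in the sum. Within FOXO3, the transcripts FOXO3-201 and FOXO3-202 encode the same 673 amino acids, and FOXO3-201 held 55.3% ± 8.45 (SD, n = 3) of the TPM at 0 h and 39.2% ± 3.52 (SD, n = 3) at 6 h.

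FOXO4 (ENSG00000184481.17, chrX:71095851-71103532), the smallest of the 3 factors at 505 amino acids, lay between 23.8 and 30.01 CPM in all 16 libraries. It was called at 12 h alone, with 30.01 and 29.7 CPM against 24.1, 24.8 and 26.3 CPM at 0 h (0.25, SE 0.09, adjusted p 0.0361). That call held in 7 of 18 fits. It was lost without any of control 0 h replicate 1 (0.23), control 0 h replicate 2 (0.23), latrunculin B 12 h replicate 1 (0.25) and latrunculin B 12 h replicate 2 (0.26), and against control 24 h the value was 0.12 (adjusted p 0.367). A further family member, FOXO6, was at most 2.94 CPM in any library and was called at no time against its control.

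The receptors gave different pictures. INSR (ENSG00000171105.14, chr19:7112255-7294414), the insulin receptor, was at 71.5, 72.0 and 69.6 CPM at 0 h and at 77.1 and 73.1 CPM in control 24 h. Its drug libraries read 93.2, 94.3 and 95.6 CPM at 3 h, 98.7, 100.1 and 97.3 CPM at 6 h, 61.8 and 48.7 CPM at 12 h, and 64.8, 68.4 and 65.7 CPM at 24 h. All libraries of 3 h and 6 h were above all controls, and all libraries of 12 h and 24 h below them. INSR rose by 0.41 (SE 0.06, adjusted p 0.000309) at 3 h and by 0.47 (SE 0.06, adjusted p 6.26e-05) at 6 h on the log2 scale. It was lower by the test at 12 h (-0.37, SE 0.07, adjusted p 0.00180), with -0.20 without replicate 2 of that time and -0.55 without replicate 1. That call was lost with the compared groups alone (-0.38, adjusted p 0.0618) and by limma on TPM. The change at 24 h was -0.18 (SE 0.07, adjusted p 0.0605) and missed the threshold, but it passed in 6 of 19 fits, among them the fit without latrunculin B 12 h replicate 2 (-0.18, adjusted p 0.00264).

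Exon 11, printed above, is part of INSR-201 (1382 amino acids), the isoform known as B, and is skipped in INSR-202 (1370 amino acids), isoform A, which also binds IGF2. By estimated TPM, isoform A was the more abundant in every group. INSR-202 held 62.9% ± 3.67 (SD, n = 3) of INSR TPM at 0 h, 60.7% ± 4.22 (SD, n = 3) at 3 h and 62.6% ± 6.60 (SD, n = 3) after 24 h of drug. INSR-201 held 33.2% ± 2.95 (SD, n = 3), 33.2% ± 2.41 (SD, n = 3) and 33.7% ± 5.26 (SD, n = 3) in the same groups. Between these groups the split moved by less than the spread between libraries. At 12 h, where the gene was lowest, INSR-202 held 57.3% ± 2.30 (SD, n = 2) and its libraries (55.7% and 58.9%) lay below those of 0 h (59.1% to 66.4%), while INSR-201 held 27.8% ± 10.6 (SD, n = 2). There the short transcript INSR-206, of 653 bases, took 13.2% ± 6.60 (SD, n = 2). That share rested on a mean of 10.4 reads, or 0.729% of the gene's reads. By share of reads INSR-202 held a mean of 62.4% at 0 h and 64.6% at 12 h, so its lower share at 12 h was not present by reads.

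IGF1R (ENSG00000140443.15, chr15:98648539-98964530), the receptor for IGF1 and IGF2, was called in none of the 8 comparisons by edgeR or DESeq2, and 0 of its 8 unadjusted edgeR p-values were under 0.05. The log2 fold changes were -0.13 at 3 h, -0.08 at 6 h, 0.14 at 12 h and -0.10 at 24 h, with an SE of 0.10 to 0.11. Its libraries ran from 169 to 209 CPM, apart from 265 CPM in latrunculin B 12 h replicate 2, the library high in mesenchyme markers. Without that library the value at 12 h was -0.13 (adjusted p 0.278), and without replicate 1 of that time it was 0.37 (adjusted p 0.00304). At 3 h the value ± 2 SE ran from -0.33 to 0.06.

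**Figure D2:**
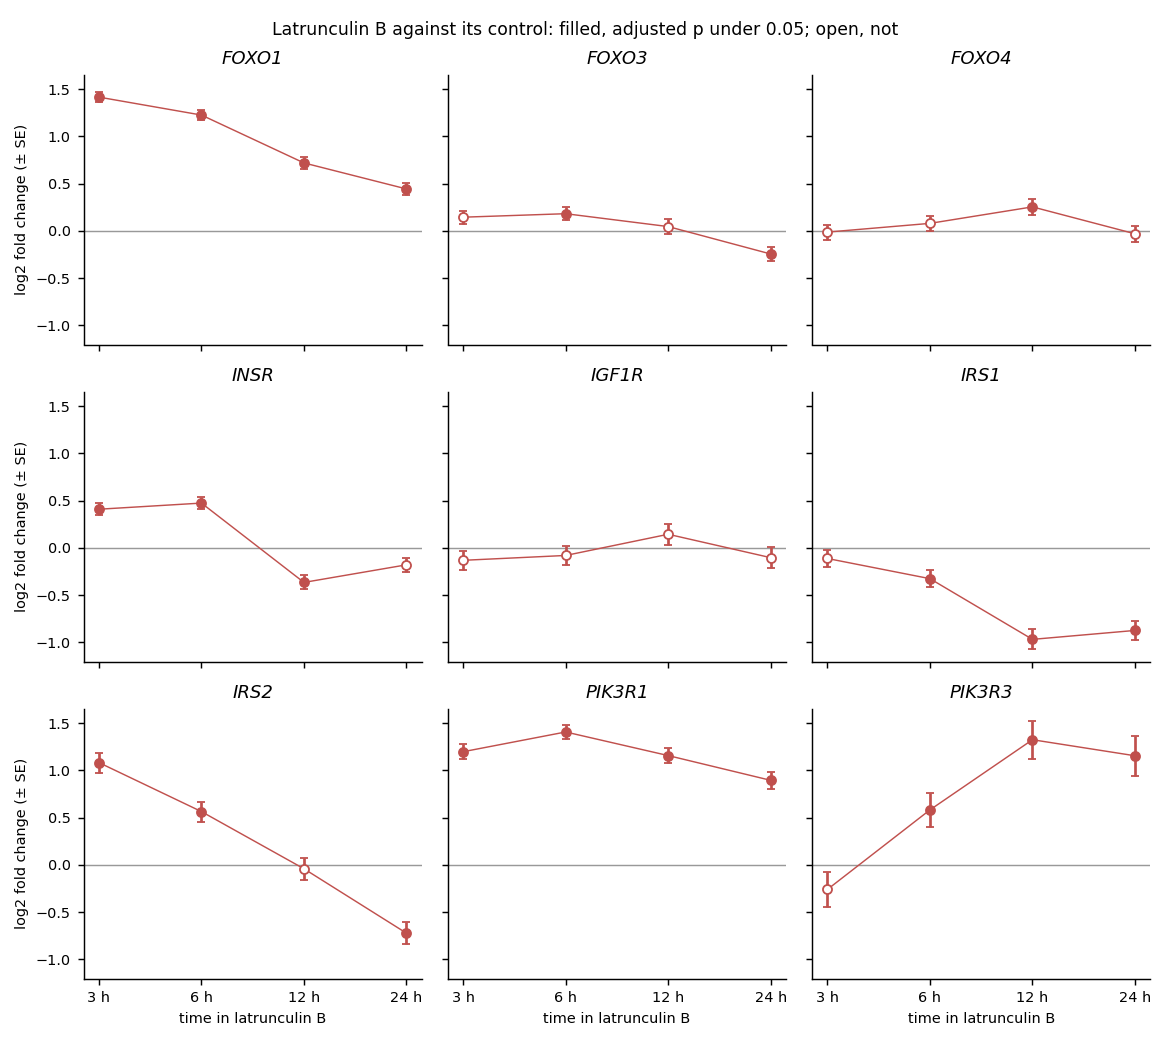
Log2 fold change of each gene (vertical axis, bars are SE) at 3, 6, 12 and 24 h of latrunculin B (horizontal axis) against control 0 h, or against control 24 h for the last point. Filled points had an edgeR adjusted p under 0.05, and IRS2 runs from 1.08 at 3 h to -0.72 at 24 h while PIK3R3 runs from -0.26 to 1.16.

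The adaptor pair diverged. IRS2 (ENSG00000185950.9, chr13:109752695-109786583), whose transcription is known to respond to nutrient state, was at 113, 119 and 128 CPM at 0 h and at 116 and 124 CPM in control 24 h. It stood at 220.4, 254 and 288 CPM at 3 h, 170.5, 179 and 183 CPM at 6 h, 126 and 107 CPM at 12 h, and 84.1, 63.9 and 70.4 CPM at 24 h. Libraries of 3 h and 6 h lay above every control, those of 12 h overlapped them, and those of 24 h lay below. IRS2 rose by 1.08 (SE 0.11, adjusted p 6.73e-06) at 3 h and 0.56 (SE 0.11, adjusted p 0.000785) at 6 h on the log2 scale. It was lower after 24 h (-0.72, SE 0.12, adjusted p 0.000345). Between 6 h and 24 h of drug it fell by 1.29 (SE 0.11, adjusted p 2.07e-06). These 4 calls held in every fit tried.

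IRS1 (ENSG00000169047.6, chr2:226731312-226799820), the adaptor first found downstream of the insulin receptor, went down. It was at 142, 138 and 135 CPM at 0 h and at 129 and 136 CPM in control 24 h. The drug libraries read 114, 124 and 146 CPM at 3 h, 111, 109 and 111 CPM at 6 h, 79.2 and 62.5 CPM at 12 h, and 71.6, 76.6 and 68.3 CPM at 24 h. From 6 h on no drug library reached a control library. The log2 fold change was -0.11 (SE 0.09) at 3 h, which was not called, -0.33 (SE 0.09, adjusted p 0.0101) at 6 h, -0.97 (SE 0.10, adjusted p 1.60e-05) at 12 h and -0.87 (SE 0.10, adjusted p 2.56e-05) at 24 h. Without replicate 2 of 12 h the value there was -0.81. Against control 24 h the 6 h value was -0.26 and missed the threshold (adjusted p 0.0519).

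Measured per length as TPM (transcript abundance scaled to the same total in each library), the ratio of IRS2 to IRS1 within a library was 0.654 to 0.786 at 0 h and 0.740 to 0.788 in control 24 h. It was 1.45 to 1.63 at 3 h, 1.21 to 1.37 at 6 h and 1.23 to 1.24 at 12 h, then 0.657 to 0.928 after 24 h of drug. By summed TPM, IRS2 transcripts thus outnumbered those of IRS1 from 3 h to 12 h and were the fewer in both control groups and at 24 h. The short transcript IRS1-202, of 506 bases, held 13.9% ± 1.90 (SD, n = 3) of IRS1 TPM after 24 h of drug. That share rested on a mean of 9.20 reads. The long transcript IRS1-201 alone reached at most 10.9 TPM after 24 h of drug, below IRS2 in replicate 1 at 11.4 TPM.

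The regulatory subunits rose on different schedules. PIK3R1 (ENSG00000145675.16, chr5:68215740-68301821) encodes p85α and its shorter forms, which stabilise the catalytic subunit of PI3K and hold it inactive until recruited. Its libraries were at 131, 125 and 142 CPM at 0 h, 146 and 140.5 CPM in control 24 h, and 320.4, 316 and 277 CPM at 3 h. They stood at 369, 349 and 338 CPM at 6 h, 314 and 278 CPM at 12 h, and 285, 243 and 271 CPM at 24 h. Every drug library exceeded every control library. The log2 fold change was 1.20 (SE 0.08, adjusted p 2.29e-07) at 3 h and 1.41 at 6 h. It was 1.16 at 12 h, or 1.24 without replicate 2 of that time, and 0.90 (SE 0.09, adjusted p 7.54e-06) at 24 h, and all 4 were called in every fit tried. The transcript PIK3R1-211, of 724 amino acids, the length of p85α, held between 82.6% and 90.9% of the gene's TPM by group.

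PIK3R3 (ENSG00000117461.15, chr1:46040140-46133036) encodes p55γ, a shorter subunit of 461 amino acids. It was at 47.5, 44.7 and 51.3 CPM at 0 h and at 39.1 and 48.9 CPM in control 24 h. The drug libraries read 41.9, 45.7 and 32.2 CPM at 3 h, 75.6, 69.2 and 69.9 CPM at 6 h, 83.9 and 155 CPM at 12 h, and 106, 89.5 and 98.0 CPM at 24 h. Those of 3 h overlapped the controls and all later ones lay above. PIK3R3 was not called at 3 h (-0.26, SE 0.19) and rose by 0.58 (SE 0.18, adjusted p 0.0204) at 6 h, 1.33 (SE 0.20, adjusted p 0.000226) at 12 h and 1.16 (SE 0.21, adjusted p 0.000744) at 24 h. The higher 12 h library is the one with high mesenchyme markers, whose part was not tested, and without it the 12 h change was 0.81, still called. At 6 h the call was lost without control 0 h replicate 1 (0.58, adjusted p 0.0506), control 0 h replicate 2 (0.52, adjusted p 0.0807) or latrunculin B 6 h replicate 1 (0.52, adjusted p 0.0695). It was also lost unscaled (0.49, adjusted p 0.0559), when transcript length entered the fit (0.35, adjusted p 0.271) and by limma on log2(TPM + 1) (0.24, adjusted p 0.501), and held in 13 of 20 fits. For PIK3R3, 5 transcripts held at least 10% of its TPM in some group. The main one, PIK3R3-201, held 46.6% ± 4.46 (SD, n = 3) at 0 h and 59.2% ± 9.44 (SD, n = 3) after 24 h of drug. By reads its mean share was 69.5% at 0 h and 74.0% after 24 h of drug. The short transcript PIK3R3-207, of 765 bases, held 23.2% ± 11.6 (SD, n = 3) of the TPM at 0 h on a mean of 40.0 reads.

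Across this pair the TPM ratio of PIK3R1 to PIK3R3 was 1.66 to 1.97 at 0 h and 1.66 to 2.75 in control 24 h. With the drug it was 4.64 to 5.91 at 3 h, 3.43 to 3.89 at 6 h and 1.33 to 2.62 at 12 h. After 24 h of drug it was 1.71 to 2.43, within the range of control 24 h. The ratio of FOXO1 to FOXO3 went from 0.716 to 0.774 at 0 h to a range of 1.70 to 2.01 at 3 h. It was 1.07 to 1.20 after 24 h of drug and 0.695 to 0.725 in control 24 h. With the reads of FOXO3B added to FOXO3, it was 0.470 to 0.554 at 0 h, 0.446 to 0.487 in control 24 h, 1.06 to 1.22 at 3 h and 0.567 to 0.588 after 24 h of drug. At 0 h, in TPM, PIK3R1 led the 9 genes at 36.7 ± 2.32 (SD, n = 3). IGF1R followed at 23.8 ± 0.935 (SD, n = 3) and then IRS1 at 21.7 ± 1.07 (SD, n = 3), with no overlap of their libraries. The libraries of IRS1 overlapped those of PIK3R3 at 21.0 ± 2.96 (SD, n = 3), and those of FOXO3 at 16.8 ± 0.298 (SD, n = 3) overlapped those of IRS2 at 15.7 ± 0.942 (SD, n = 3). FOXO1 at 12.4 ± 0.540 (SD, n = 3), FOXO4 at 11.8 ± 0.338 (SD, n = 3) and INSR at 11.8 ± 0.0623 (SD, n = 3) were the lowest, each overlapping its neighbour.

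**Figure D3:**
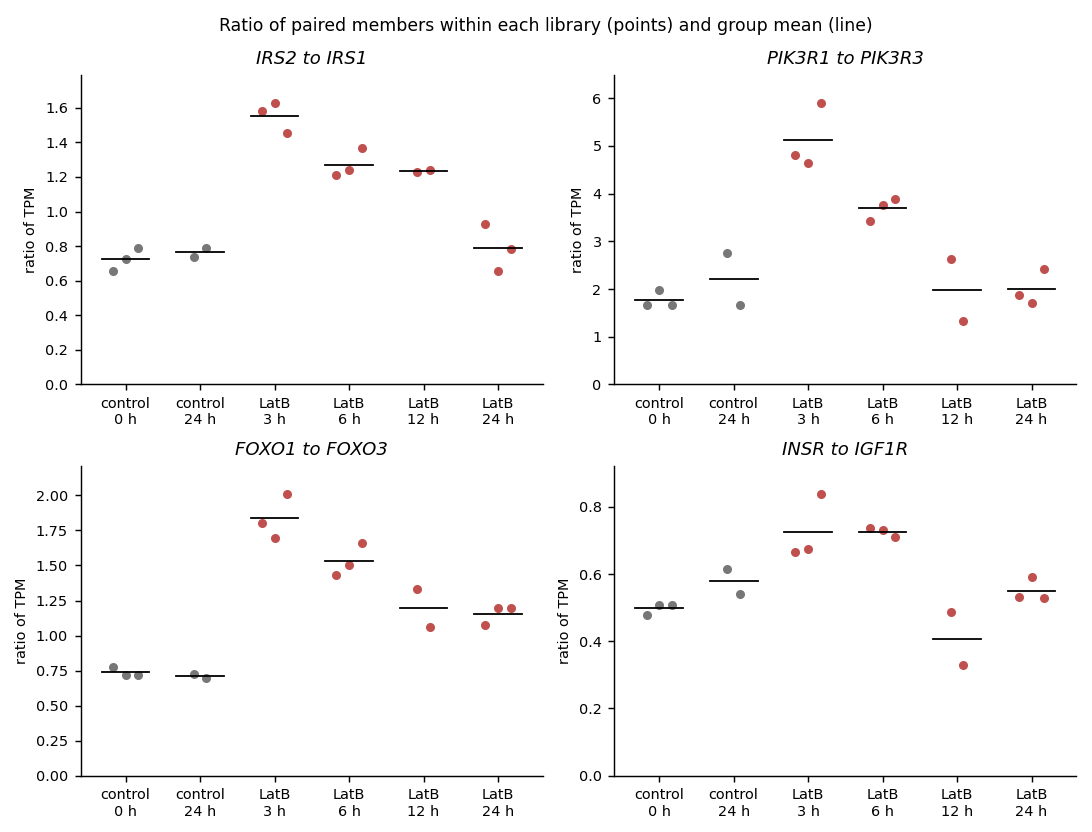
Ratio of the TPM values of related genes within each library (vertical axis) by group (horizontal axis, LatB is latrunculin B), with points for libraries and a line at the group mean. The IRS2 to IRS1 ratio is above 1 in the libraries of 3 to 12 h and below 1 in the controls and at 24 h.

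The next question was whether the early and the late response differed. The effect at 24 h minus the effect at 3 h, tested as one contrast, was called for 6 of the 9 genes, against 27.9% of all genes tested. It was -1.81 (SE 0.16, adjusted p 1.04e-05) for IRS2, -0.97 (SE 0.08, adjusted p 1.00e-05) for FOXO1, -0.76 (SE 0.13, adjusted p 0.00115) for IRS1, -0.59 (SE 0.10, adjusted p 0.000669) for INSR and -0.39 (SE 0.10, adjusted p 0.0126) for FOXO3. The FOXO3 call was lost without scaling (-0.29, adjusted p 0.0642) and by limma on TPM. PIK3R3 alone was in the other direction, at 1.42 (SE 0.28, adjusted p 0.00227). PIK3R1 missed the threshold at -0.30 (SE 0.11, adjusted p 0.0622) and was called without any of control 0 h replicate 3 (-0.36), latrunculin B 3 h replicate 3 (-0.36), 24 h replicate 1 (-0.35) and 12 h replicate 2 (-0.30). The effects at both times rest on different controls.

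Within the drug series, 3 of the 9 were called from 3 h to 6 h, against 22.2% of all genes. PIK3R3 rose by 0.84 (SE 0.18, adjusted p 0.00568), a call lost with transcript length in the fit (0.67, adjusted p 0.0712) and by limma on TPM. IRS2 fell by 0.52 (SE 0.11, adjusted p 0.00361) and FOXO1 fell as given above. Without latrunculin B 12 h replicate 2, which shares the estimate of spread, IRS1 (-0.21, adjusted p 0.0492) and PIK3R1 (0.21, adjusted p 0.0411) were called as well, which makes 5. IRS1 was also called without 3 h replicate 1 (-0.29, adjusted p 0.0439). PIK3R1 was also called by DESeq2 (0.22, adjusted p 0.0269) and by edgeR with the compared groups alone (0.21, adjusted p 0.0393). From 6 h to 24 h 6 of the 9 were called, all lower, and they were FOXO1, FOXO3, INSR, IRS1, IRS2 and PIK3R1. Among all genes 37.9% were called there, with 3169 of 16705 higher and 3154 lower. Higher genes made up 50.1% of those calls, and 73.8% when no scaling was applied. PIK3R3 was at 0.45 (SE 0.18, edgeR adjusted p 0.0642) from 6 h to 24 h and was called without 12 h replicate 2 (0.45). It was also called by DESeq2 (0.45, adjusted p 0.0380), and by edgeR unscaled (0.59, adjusted p 0.0235) and with the compared groups alone (0.46, adjusted p 0.00182). Of all genes, 0.251% were called between control 24 h and control 0 h. None of the 9 was, by edgeR or by DESeq2, and 0 of the 9 had an unadjusted p under 0.05 by edgeR.

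The rest of the pathway was described with 6 lists of 98 genes, of which 91 passed the filter. INSRR, PIK3CG, PIK3R5, PIK3R6, G6PC1, PCK1 and FASLG did not pass. By edgeR, 27 list genes were higher and 12 lower at 3 h, 35 and 16 at 6 h, 24 and 21 at 12 h, and 22 and 21 at 24 h. That is 42.9%, 56.0%, 49.5% and 47.3% of the 91, beside 31.6%, 43.3%, 35.8% and 40.8% of all genes tested, so the share at 24 h in particular is near that of all genes. For the counts by list below, the shares of all genes higher and lower were 16.8% and 14.7% at 3 h, 22.9% and 20.4% at 6 h, 19.1% and 16.8% at 12 h, and 21.9% and 18.8% at 24 h. In control 24 h against control 0 h 0 of the 91 were called by edgeR, 10 had an unadjusted p under 0.05 and 1 was called by DESeq2. The rule for naming genes chose 104 changes of 58 list genes, and 23 of these changes lost their call when 1 library was left out. None of those 23 changes is described below. Some changes that are described lost their call under other fits. GAB1 and PIK3R2 at 24 h were each called in 16 of 19 fits, and GAB1 at 12 h in 16 of 18. CREBBP at 3 h was called in 18 of 20 fits and PDK4 at 12 h in 17 of 18. SOCS3 at 3 h and at 6 h and XPO1 at 6 h were each called in 19 of 20.

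Among ligands and binding proteins, 2 of 10 were higher at 3 h, 5 at 6 h, 6 at 12 h and 2 at 24 h, and 1 was lower at 6 h. The median log2 fold change of the list was 0.16, 0.58, 1.11 and 0.19. IGFBP1, an IGF-binding protein known as a FOXO target in liver, stayed low, at 0.242 ± 0.140 CPM at 0 h (SD, n = 3) and at most 3.40 ± 0.623 CPM, its mean of 6 h (SD, n = 3). Its log2 fold change was 3.26 (SE 0.41, adjusted p 5.23e-05) at 3 h and 3.79 (SE 0.41, adjusted p 9.57e-06) at 6 h. IGFBP3, the main IGF carrier of serum, was higher at each time, by 0.90 (SE 0.12) at 3 h and by 1.23 (SE 0.14) at 24 h. IGF2, a ligand of IGF1R and of isoform A of INSR, was abundant, with 36910.4 ± 2284 CPM at 0 h (SD, n = 3) and 31213 ± 1663 CPM in control 24 h (SD, n = 2). After 24 h of drug it was at 33076 ± 2338 CPM (SD, n = 3) and was not called against control 24 h (0.08, SE 0.09, edgeR adjusted p 0.471). INS itself was under 4 CPM in every library. IGF1 was called at 12 h (1.73, SE 0.27, adjusted p 0.000311), where it read 8.88 CPM in replicate 1 and 15.9 CPM in the library high in mesenchyme markers, with 1.24 to 2.08 over left-out libraries.

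Of the other receptors and adaptors, 14 tested, 3 were higher and 2 lower at 3 h, 6 and 2 at 6 h, 3 and 4 at 12 h, and 2 and 4 at 24 h. SOCS3, an inhibitor that binds receptors and IRS proteins, was lower at 3 h (-1.09, SE 0.20, adjusted p 0.000924) and 6 h (-0.76), and lowest at 12 h (-1.58, SE 0.24). GRB10, an adaptor that restrains INSR and IGF1R, rose by 0.85 (SE 0.08, adjusted p 3.60e-06) at 6 h. IGF2R, which clears IGF2, rose by 0.65 (SE 0.11, adjusted p 0.000625) at 12 h, with 0.45 to 0.83 over left-out libraries. PTPRF, a receptor phosphatase, and GAB1, a docking protein, were lower at 12 h (-0.58, SE 0.07 and -0.52, SE 0.07) and at 24 h (-0.69, SE 0.07 and -0.54, SE 0.07).

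In the list of PI3K and lipid phosphatases, 10 tested, 0 were higher and 2 lower at 3 h by edgeR, with 3 at an unadjusted p under 0.05 in either direction and 2 called by DESeq2. At 6 h 0 were higher and 4 lower, at 12 h 0 and 3, and at 24 h 1 and 4. PIK3IP1, an inhibitor of PI3K, had a mean of 13.6 ± 0.403 CPM at 0 h (SD, n = 3) and of 5.28 ± 1.45 CPM at 3 h (SD, n = 3), and the difference on the log2 scale was -1.37 (SE 0.30, adjusted p 0.00311). It was lower at 6 h too (-1.82, SE 0.30, adjusted p 0.000334). The catalytic subunit PIK3CB was lower at 12 h (-0.76, SE 0.09, adjusted p 3.19e-05). PIK3R2, the p85β subunit, was the gene called higher at 24 h (0.24, SE 0.05, adjusted p 0.00276).

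On the AKT branch, 22 tested, 11 were higher and 2 lower at 3 h, 10 and 2 at 6 h, 2 and 9 at 12 h, and 5 and 4 at 24 h. SGK1, a kinase that also phosphorylates FOXO proteins, had a mean of 95.8 ± 5.24 CPM at 0 h (SD, n = 3) and of 402 ± 31.5 CPM at 3 h (SD, n = 3), so it rose (2.07, SE 0.27, adjusted p 6.72e-05). PDPK1, the kinase that activates AKT and SGK1, rose by 0.58 (SE 0.04, adjusted p 2.44e-07) at 3 h and by 0.50 at 6 h. TRIB1, a pseudokinase, was higher at each time, by 0.46 to 0.78 on the log2 scale.

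**Figure D4:**
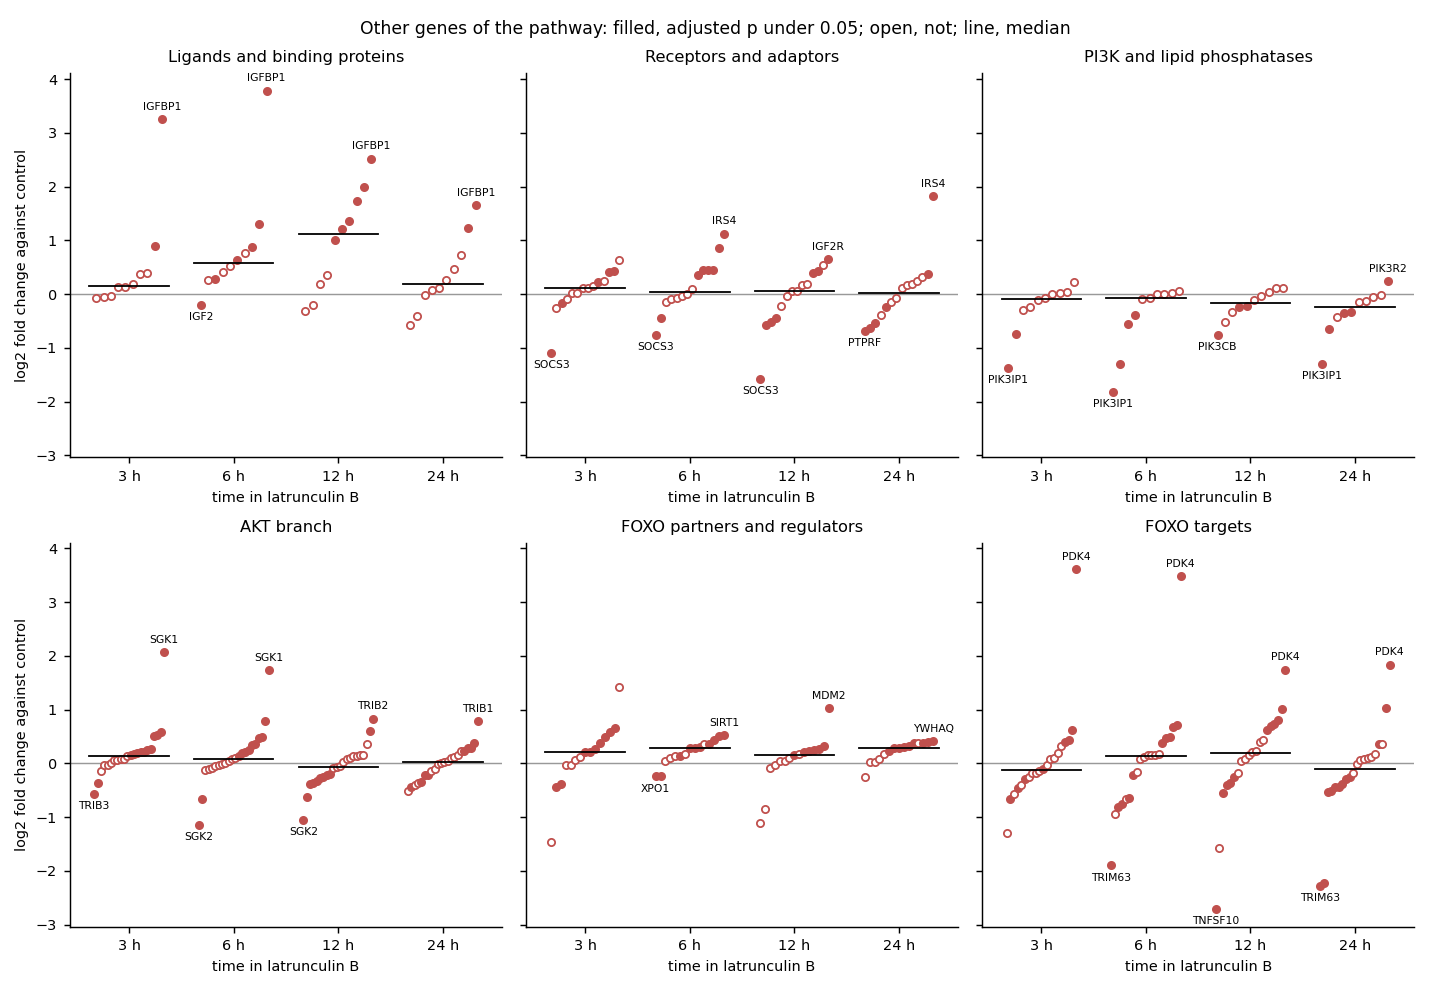
Log2 fold change (vertical axis) of each tested gene of the 6 lists at 3, 6, 12 and 24 h of latrunculin B (horizontal axis), filled where the edgeR adjusted p was under 0.05, with a line at the list's median. SGK1 (2.07 at 3 h), IGFBP1 (3.26 at 3 h) and PDK4 (3.62 at 3 h) stand highest in their lists at 3 h, and PIK3IP1 (-1.37) lowest in its own.

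Among FOXO partners and regulators, 15 tested, 7 were higher and 2 lower at 3 h, 8 and 2 at 6 h, 7 and 0 at 12 h, and 9 and 0 at 24 h. SIRT1, a deacetylase of FOXO proteins, rose by 0.66 (SE 0.06, adjusted p 2.80e-06) at 3 h and was 0.38 (SE 0.07) higher at 24 h. The acetyltransferases CREBBP and EP300 were higher at 3 h by 0.58 (SE 0.04) and 0.49 (SE 0.06), and at 24 h by 0.28 (SE 0.05) and 0.23 (SE 0.06). XPO1, the exportin that carries FOXO proteins out of the nucleus, was lower at 3 h (-0.38, SE 0.05, adjusted p 0.000118) and 6 h (-0.24), and higher at 24 h (0.29, SE 0.06, adjusted p 0.00168).

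The FOXO targets, 20 tested and not chosen independently of these data, did not move one way. At 3 h 4 were higher and 4 lower, at 6 h 6 and 5, at 12 h 6 and 5, and at 24 h 3 and 9, with list medians of -0.12, 0.13, 0.19 and -0.10. PDK4, a kinase that inhibits pyruvate dehydrogenase, was higher at each time. Its libraries at 12 h were at 168 and 50.6 CPM, and its change there was 1.75, or 0.64 without replicate 1. KLHL24 was higher by 0.62 (SE 0.05) at 3 h and lower by the test at 24 h (-0.25, SE 0.06, adjusted p 0.00436). CDKN1B, the cell cycle inhibitor p27, was not called at 3 h (-0.03, SE 0.10) and rose at the later times, by 0.38 at 6 h, 0.69 at 12 h and 1.03 (SE 0.11, adjusted p 1.81e-05) at 24 h. The antioxidant enzyme catalase, CAT, was lower at each time (-0.66, SE 0.06 at 3 h and -0.52, SE 0.07 at 24 h), as was RBL2, a pocket protein of the retinoblastoma family (-0.45, SE 0.05 and -0.44, SE 0.05).

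Genes with the most similar profiles were ranked by Pearson correlation of log2 CPM over the 16 libraries, among tested genes with a mean log2 CPM of at least 3. The libraries share groups and depth, so these values describe the profiles. FOXO1 was closest to DDIT4 (r = 0.986), TOX3 (0.982) and TIPARP (0.981). PIK3R1 had SOX4 (0.993), CCNJ (0.985) and CCAR1 (0.983). For IRS2 they were SLC38A2 (0.970), FAM177A1 (0.960) and ATG12 (0.957), and for IRS1 they were PIEZO1 (0.970), SELENON (0.969) and ULK2 (0.968). INSR was closest to LRCH1 (0.965), IPO7 (0.952) and MFAP3L (0.951). FOXO3 had LRP2 (0.962), ARMCX3 (0.953) and MN1 (0.952), and PIK3R3 had RELN (0.966), UCHL1 (0.964) and BMP7 (0.962). IGF1R, the gene that was not called, was closest to APLP1 (0.916), FBN2 (0.916) and CCDC80 (0.914). The highest library of IGF1R, at 265 CPM, and of PIK3R3, at 155 CPM, was latrunculin B 12 h replicate 2. The part of that library in these correlations was not tested. FOXO4 reached no more than 0.765, with TCN1, followed by IQANK1 (0.747) and CFAP36 (0.738).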

How the data were processed

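For each of 16 libraries of poly(A) RNA the authors deposited a transcript table with estimated counts and TPM for 177456 transcripts. The submitters' processing notes name Salmon 1.3.0, hg38 and DESeq2, while the study's methods describe alignment and gene counts, which is another route, so the settings behind the tables are not given in the sources used here. No source used here says whether counting used strand, so reads of a gene and an antisense partner cannot be told apart. The effective lengths that the authors deposited entered the length offset alone. A table of the authors' own fold changes and p-values, with 16 columns of per-sample values, was not used.

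Transcripts were joined to genes by identifier through GENCODE release 44 (GRCh38). Of these 165533 matched, and 2.92% to 3.17% of a library's reads did not and were left out. Estimated counts were summed per gene, rounded and tested by edgeR 4.0.16 (R 4.3.3, quasi-likelihood, two-sided) in one fit of all 6 groups, with TMM factors of 0.948 to 1.05, the filterByExpr filter and Benjamini-Hochberg adjustment over 16705 genes. A call is an adjusted p under 0.05. The SE is the log2 fold change divided by the square root of F. CPM uses TMM-scaled library sizes. The scripts were tested on simulated counts.

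The 9 genes and the lists were chosen with earlier results of these data known. The text names all 9 genes, from each list and each drug comparison up to 3 higher and 3 lower called genes of largest change whose libraries did not overlap, the 3 most similar profiles, and transcripts with at least 10% of a gene's TPM in a group. Alternatives were DESeq2 1.42.0, RLE factors or unscaled libraries, all genes unfiltered or those averaging at least 50 counts, the length offset, a replicate block, the compared groups alone, an adjusted p under 0.01, limma 3.58.1 on log2(TPM + 1) and log2(TPM + 0.1), the other control, read shares for transcripts and leaving out each library. The fit without latrunculin B 12 h replicate 2 for other comparisons and the sum of FOXO3 and FOXO3B were added after the data were seen. Results of some list genes chosen by the naming rule are not reported here.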

Additional observations from a re-analysis of the deposited data

Results flagged for a closer look

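For 6 of the 9 genes the change against control differed between 3 h and 24 h of latrunculin B. This was by the test of the difference itself (edgeR, adjusted p under 0.05). At 3 h the control was that of 0 h, so drug and time in culture cannot be told apart there. On the log2 scale the effect at 24 h minus the effect at 3 h was -1.81 for IRS2, -0.97 for FOXO1, -0.76 for IRS1, -0.59 for INSR, -0.39 for FOXO3 and 1.42 for PIK3R3. FOXO3 shares reads with FOXO3B, and its call was lost without scaling and by limma on TPM.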

How the results depend on the processing

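Of 1341 values of single genes under alternatives, 1229 kept direction and side of the threshold, 56 lost the call, 23 gained it and 33 changed sign. Of 149 counts of the 9 genes called, 147 stayed within 1.5 times. The exceptions were 4 at 6 h with an adjusted p under 0.01, and 5 for 6 h against 3 h without latrunculin B 12 h replicate 2. Leaving out single libraries gave 2 to 5 in the latter comparison. Of 630 counts of list genes called, 555 stayed within 1.5 times and 75 did not. Of 115 values on transcript shares, 56 moved when shares of reads took the place of shares of TPM, so those shares depend on the measure.

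For the pathway lists, limma on log2(TPM + 1) and log2(TPM + 0.1) called 22 and 24 genes at 3 h in place of 39, 26 and 27 at 12 h in place of 45, and with log2(TPM + 1) 26 at 24 h in place of 43. The compared groups alone gave 23 at 12 h. For control 24 h against control 0 h DESeq2 called 1 and the compared groups alone 3, in place of 0. The causes were not tested.

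All values that changed sign belonged to changes that had not been called. FOXO4 at 3 h was 0.030 with the length offset, and ran from -0.069 to 0.021 over left-out libraries. At 6 h it was -0.012 unscaled and -0.057 against the other control, where IGF1R was 0.033. At 24 h FOXO4 was 0.10 against the other control, and -0.12 to 0.069 over left-out libraries. For 24 h against 6 h it was -0.15 with the length offset, -0.054 and -0.058 by limma on log2(TPM + 1) and log2(TPM + 0.1), and -0.044 to 0.089 over left-out libraries. For the difference between 24 h and 3 h it was 0.084 unscaled and -0.11 to 0.081 over left-out libraries, and IGF1R was -0.011 with the length offset and -0.032 to 0.091. Other ranges over left-out libraries were, at 12 h, -0.026 to 0.11 for FOXO3, -0.13 to 0.37 for IGF1R and -0.16 to 0.070 for IRS2, for the controls, -0.044 to 0.047 for IRS2 and -0.29 to 0.031 for PIK3R3, and for 6 h against 3 h, -0.047 to 0.086 for FOXO3 and -0.018 to 0.10 for IGF1R.

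Replicate numbers did not pair the libraries. Of 36 pairs with the same number, 1 had a correlation of deviations over 0.1 (range -0.214 to 0.111), and of 70 pairs with different numbers, 4 did (-0.125 to 0.214). With the replicate block 4, 7, 5 and 6 of the 9 genes were called at 3, 6, 12 and 24 h, 0 between the controls, 3 for 6 h against 3 h, 6 for 24 h against 6 h and 6 for the difference. FOXO4 at 12 h was not called under the block (0.25, edgeR adjusted p 0.0671).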
